A study of Mus musculus with 13 samples.

Results

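Nkx2 and Nkx6 genes encode homeodomain transcription factors, and their chromatin was followed here across 3 stages of the mouse oligodendrocyte lineage. The 10 genes were the Nkx2 members Nkx2-1, Nkx2-2, Nkx2-3, Nkx2-4, Nkx2-5, Nkx2-6 and Nkx2-9 and the Nkx6 members Nkx6-1, Nkx6-2 and Nkx6-3, chosen by name from 21938 protein-coding genes of the GENCODE annotation. All 10 were found. ChIP-Seq, in which DNA attached to a chosen protein is precipitated with an antibody and sequenced, gave called peaks of 2 histone marks, H3K4me3 (K4) and H3K27me3 (K27), in 6 libraries. It also gave called peaks of the basic helix-loop-helix factor OLIG2 in 2 libraries, and RIP-Seq, the same approach applied to RNA, gave sites for OLIG2 and a control. Peaks were read within 2 kb of the transcription start site (TSS) of any transcript or in the gene for the marks, and in the gene or within 50 kb of it for OLIG2.

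NSCs are neural stem cells, OPCs the progenitors committed to the oligodendrocyte lineage, and NFOs the oligodendrocytes newly formed from them. NSCs came from the cortex of wild-type E14.5 embryos and were grown in culture, and their strain label reads C57BL/6 where the culture protocol names CD-1. OPCs and NFOs were taken directly from brains of wild-type C57BL/6 mice of both sexes at postnatal day 7 by immunopanning, in which cells bind to antibody-coated plates. The OPC plate carried an antibody to PDGFRα and the NFO plate an antibody to GalC, after depletion of microglia and endothelial cells. Stage therefore goes with age, culture and purification, and these cannot be told apart. Each condition has 1 library and no replicate, so no difference between stages was tested, and values below describe these libraries.

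NK homeobox factors read positional signals in the early embryo. In the ventral neural tube, Sonic hedgehog (Shh) from the floor plate switches on Nkx2 and Nkx6 genes in overlapping stripes of progenitors, where they act largely as repressors that sharpen the borders between progenitor domains, and oligodendrocyte precursors arise from one of these domains. Nkx2-2 and Nkx6-2 stay in use in the oligodendrocyte lineage, Nkx2-1 is a factor of the ventral forebrain, thyroid and lung, and Nkx2-3, Nkx2-5 and Nkx2-6 are known mainly from gut, spleen, heart and pharynx. H3K4me3 marks the start sites of active genes and H3K27me3 is laid down by Polycomb complexes at silent ones. Where both overlap, the domain is called bivalent.

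A peak is called here where it passed the filter that the study's methods give. The filter asks for a fold enrichment over the control above 3.5 for histone marks or above 5 for OLIG2, together with an FDR below 0.05. A peak is listed where the deposited file holds it at all. The K4 libraries held 26385, 17296 and 15902 called peaks in NSCs, OPCs and NFOs, the K27 libraries 22502, 19265 and 8589, and the OLIG2 libraries 6566 in OPCs and 14076 in NFOs. The files do not give how many reads support a peak, so that depth is unknown. Median widths in NSCs, OPCs and NFOs were 939, 1048 and 268 bp for K4 and 311, 263 and 697 bp for K27. Reads of NSCs were single-end and those of OPCs and NFOs paired-end. Widths and counts of peaks are therefore not on one scale between libraries, and this holds between OPCs and NFOs as well. The antibody label of the 6 histone libraries names the other mark than the title, and titles were used. Of the stage markers, K4 lay at the TSS of 5, 5 and 2 of 5 NSC markers, 5, 5 and 4 of 5 OPC markers and 2, 3 and 1 of 7 NFO markers in NSCs, OPCs and NFOs, so K4 at these markers did not separate NSCs from OPCs. In NFOs the 1 NFO marker was Gpr17, with no called K4 peak at Mbp, Mog, Mag, Cnp or Enpp6. Among markers of other cells, K4 lay at 5, 4 and 2 of 5 neuron, 3, 2 and 1 of 5 astrocyte, 0, 1 and 0 of 5 microglia and 1, 1 and 1 of 5 endothelial markers in NSCs, OPCs and NFOs, and their part in the values below was not tested.

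As a family, the Nkx2 and Nkx6 genes carried K27 near the TSS of most members at every stage. K27 lay within 2 kb of a TSS in 7 of 10 members in NSCs and in 8 of 10 in OPCs and in NFOs, beside 9.5%, 12.8% and 7.67% of all protein-coding genes (exact binomial 95% intervals 9.12 to 9.9, 12.4 to 13.3 and 7.32 to 8.03, which cover counting error only). K4 lay there in 7 members in NSCs, 5 in OPCs and 5 in NFOs, beside 62.7%, 60.5% and 38.6% of all genes, so the K4 shares of 70%, 50% and 50% were near those of genes in general. Overlapping K4 and K27 peaks were merged into a bivalent domain, and a gene was taken as bivalent where such a domain reached within 2 kb of its TSS and no peak of 1 mark alone did. Each library pools many cells, so overlapping peaks need not come from the same cell, a caveat that the study gives too. The K4 peak of the domain can itself lie farther away, as it did for Nkx2-1 and Nkx6-1 in NSCs, Nkx2-6 in OPCs and Nkx6-1 in NFOs. This state held 7 members in NSCs, 4 in OPCs and 2 in NFOs, beside 3.52%, 2.62% and 1.39% of all genes. A mixed state, with a bivalent domain next to a peak of 1 mark alone, or both marks apart, held 0, 1 and 3 members beside 3.79%, 6.32% and 2.42%.

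K4 only was the state of 2 members in NSCs (Nkx2-2 and Nkx6-2) and of Nkx2-2 alone in OPCs and NFOs, beside 55.7%, 51.8% and 35.2% of all genes. K27 only was the state of 0 members in NSCs, of Nkx2-4, Nkx2-5 and Nkx6-2 in OPCs and of Nkx2-3, Nkx2-4 and Nkx6-2 in NFOs, beside 2.32%, 3.91% and 3.87%. Nkx6-3 had no called peak near its TSS at any stage. Many of the K4 peaks behind these counts were short, and with K4 peaks of at least 500 bp only, 2 members in NSCs, 5 in OPCs and 2 in NFOs had a K4 call, beside 60.3%, 55.8% and 21.4% of all genes. The order of the stages by their K4 counts, 7, 5 and 5 with every width, thus turned between NSCs and OPCs.

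**Figure D1:**
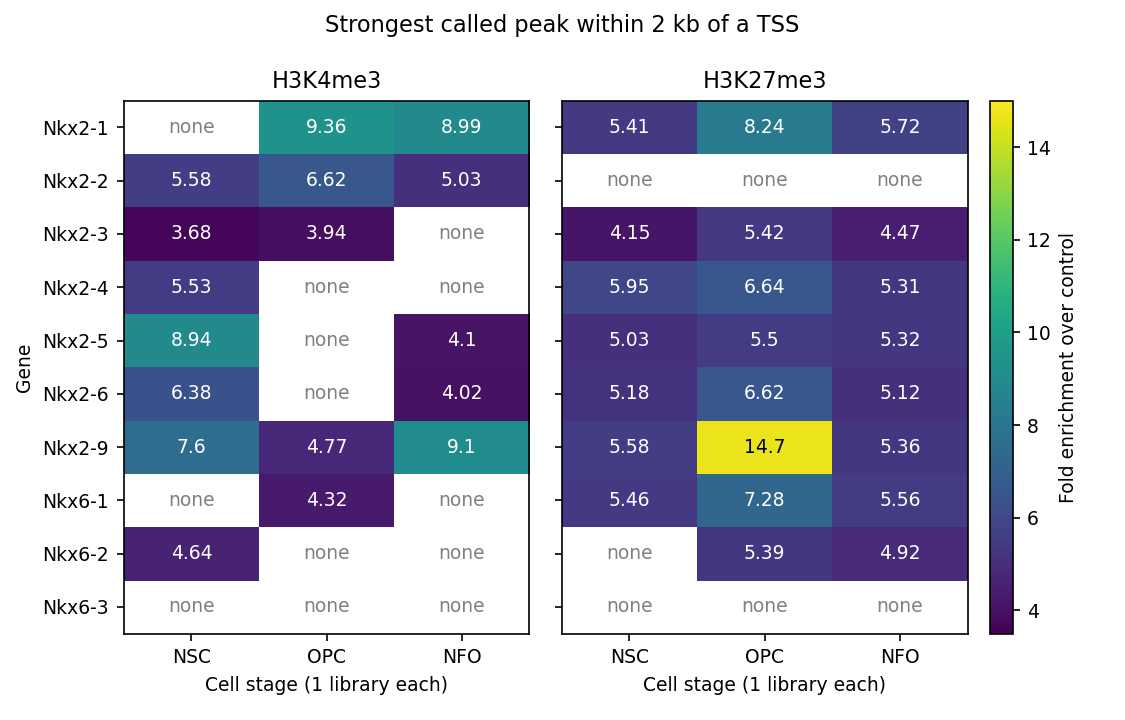
Fold enrichment of the strongest called K4 (left) and K27 (right) peak within 2 kb of a TSS for each of the 10 genes (rows) in NSCs, OPCs and NFOs (columns, 1 library each), with "none" where no peak was called. K27 is present at every stage in 7 rows, at no stage for Nkx2-2 and Nkx6-3, and from OPCs on for Nkx6-2, and K4 values are absent for Nkx2-4 after NSCs and present in every column for Nkx2-2 and Nkx2-9.

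K27 around these genes was long as well as frequent. Within 10 kb on either side of the gene's 5' end, a window of 20001 bp, the median member had 10387.5, 9975 and 10637 bp under called K27 peaks in NSCs, OPCs and NFOs, and the median over all genes was 0 at each stage. At least 10000 bp were covered in 5 of 10 members at every stage, beside 0.802%, 1.03% and 0.971% of all genes. Members ran from 0% of the window (Nkx2-2 at every stage) to 100% (Nkx2-5 in NSCs). A chosen list of 29 other homeobox genes of the same NK-like (NKL) class, which does not hold the whole class, had like medians of 8079, 11254 and 10773 bp.

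**Figure D2:**
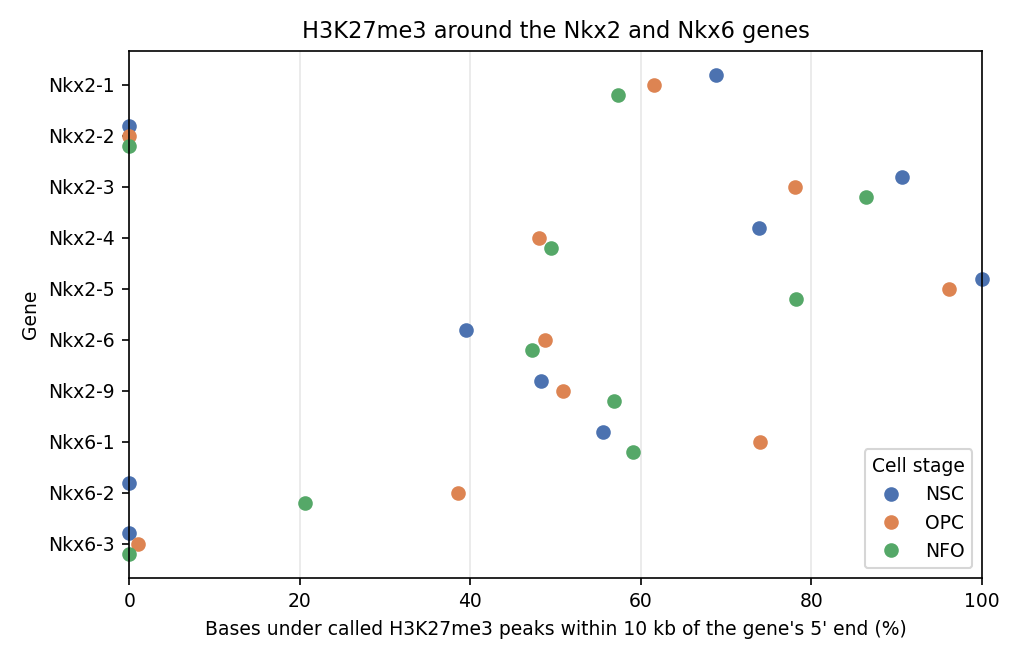
Percent of the bases within 10 kb of each gene's 5' end that lay under called K27 peaks (x axis) for the 10 genes (y axis) in NSCs, OPCs and NFOs (colours, 1 library each). Nkx2-2 and Nkx6-3 sit at or near 0 at every stage, Nkx6-2 moves from 0 in NSCs to 38.5 in OPCs and 20.6 in NFOs, and the other 7 genes lie between 39.5 and 100.

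Nkx2-2, a factor that Shh induces next to the floor plate and that acts in oligodendrocyte differentiation, was the member with K4 and no K27 at every stage. The gene lies at chr2:147177546-147194243 on the minus strand (mm10) and has 4 annotated TSSs, spread between positions 147186101 and 147194243. K4 stood at both ends of that span. At the downstream group of TSSs the called K4 peak measured 3265 bp with a fold enrichment of 4.21 in NSCs, 3865 bp with 6.62 in OPCs and 1998 bp with 5.03 in NFOs, with a further NFO peak of 1372 bp and 4.90 beside it. At the upstream TSS it measured 2233 bp with 5.58 in NSCs, 2614 bp with 5.11 in OPCs and 1066 bp with 4.21 in NFOs. The OPC peak at the downstream TSSs was the 306th widest of 17296 K4 peaks and the NFO peak the 310th widest of 15902. A smaller OPC peak of 380 bp lay in an intron with a fold enrichment of 3.58, and an NSC peak of 889 bp lay over a coding exon. K4 covered 5120, 5492 and 3064 bp of the 20001 bp window in NSCs, OPCs and NFOs. Over all protein-coding genes the medians were 1620, 877 and 0 bp and the 95th percentiles 5122, 3115 and 1550 bp. Values over all genes were thus lower in NFOs too. Nkx2-2 lay just below the 95th percentile in NSCs and above it in OPCs and NFOs. No K27 peak, called or listed, lay within 2 kb of a TSS or in the gene. The antisense gene Nkx2-2os overlaps the locus, and its 5' end lies under the downstream K4 peak of NSCs and OPCs, so the marks of the 2 genes cannot be told apart there.

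The stretch upstream of the RefSeq start of Nkx2-2 is shown because it lay inside the called K4 peak of all 3 stages. It is chr2:147186456-147186652 of GRCm38, minus strand, written from 5' to 3' without bases of annotated exons, and capitals mark E-boxes, the CANNTG sites that OLIG2 and related factors can bind.
Nkx2-2 upstream: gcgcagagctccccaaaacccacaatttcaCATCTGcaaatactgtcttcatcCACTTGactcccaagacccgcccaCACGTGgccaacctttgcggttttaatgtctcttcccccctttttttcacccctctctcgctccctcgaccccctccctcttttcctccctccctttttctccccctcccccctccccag
It holds 3 E-boxes, and the first reads CAGATG on the other strand. An E-box on either strand was found in 72.3% of 32851 RefSeq promoters of 300 bases and CAGATG in 17.2%. No OLIG2 peak, called or listed, lay in Nkx2-2 or within 50 kb of it in OPCs or NFOs. The pattern of calls of Nkx2-2, K4 at every stage and K27 at none, was that of 6568 genes (29.9%), the member counted here as below, among them Olig1, Olig2, Ptch1 and Sufu of the lists considered here.

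Nkx6-2, which is known from progenitors of the ventral neural tube and from oligodendrocytes, had K4 in NSCs and K27 in OPCs and NFOs. The gene lies at chr7:139579376-139582797 on the minus strand. In NSCs a K4 peak of 1683 bp with a fold enrichment of 4.64 lay over its coding exons and ended 33 bp from the TSS, and neither OPCs nor NFOs had a listed K4 peak at the gene. OPCs had called K27 peaks of 3380 bp with 4.46 over the gene and 1126 bp with 5.39 upstream, and NFOs had 1 of 4127 bp with 4.92 over the TSS. Values near the filter bear on this order. A K27 peak of 2967 bp with a fold enrichment of 3.45 was listed in NSCs over the TSS, just below the filter of 3.5, and with every listed peak counted the NSC state turns from K4 only to bivalent. In NFOs a K27 peak of 2632 bp over the gene had 3.44 and was not called either. The pattern of calls was that of 84 genes (0.383%), none of the others in the lists.

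The 250 bases upstream of Nkx6-2 are printed because they lay inside the NFO K27 peak and the listed NSC one, and all but 1 of them between the 2 OPC peaks. They are chr7:139582798-139583047 of GRCm38, minus strand, with E-boxes in capitals.
Nkx6-2 upstream: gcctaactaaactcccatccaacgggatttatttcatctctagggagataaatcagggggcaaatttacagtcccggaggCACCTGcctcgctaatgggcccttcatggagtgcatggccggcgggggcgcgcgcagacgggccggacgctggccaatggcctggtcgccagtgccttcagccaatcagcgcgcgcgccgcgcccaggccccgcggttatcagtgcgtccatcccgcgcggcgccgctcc
This run holds 26 CpG dinucleotides and 1 E-box. Over the 300-base RefSeq promoters of the 8 members in that table, CpG counts ran from 9 (Nkx2-5) to 40 (Nkx6-1) with a median of 16, beside a median of 7 over all promoters, and 33% of all promoters held at least 16.

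Nkx6-1, a factor of ventral progenitors and motor neurons and of pancreatic beta cells, was bivalent at all 3 stages. K27 flanked the TSS on both sides, with peaks of 7341 and 3778 bp in NSCs (fold enrichment 5.46 and 4.35), 8840 and 5706 bp in OPCs (7.28 and 5.88) and 7326 and 4092 bp in NFOs (5.81 and 5.56), and the TSS itself lay in the gap at each stage. K4 reached the TSS only in OPCs, as a peak of 1915 bp with a fold enrichment of 4.32 that filled the gap. A short K4 peak in the exon at the 3' end recurred at the same place in every stage, with 333 bp and 9.93 in NSCs, 212 bp and 11.6 in OPCs and 220 bp and 10.6 in NFOs. It lay 5705 to 5813 bp from the TSS, and in NSCs and NFOs the bivalent state rested on short K4 peaks inside the K27 domains and on none within 2 kb of the TSS. Over all genes, 5.69% of the bivalent genes in NSCs, 5.57% in OPCs and 12.5% in NFOs had no K4 peak within 2 kb. The pattern of calls was that of 21 genes, with Mnx1, a motor neuron factor, among the listed ones.

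**Figure D3:**
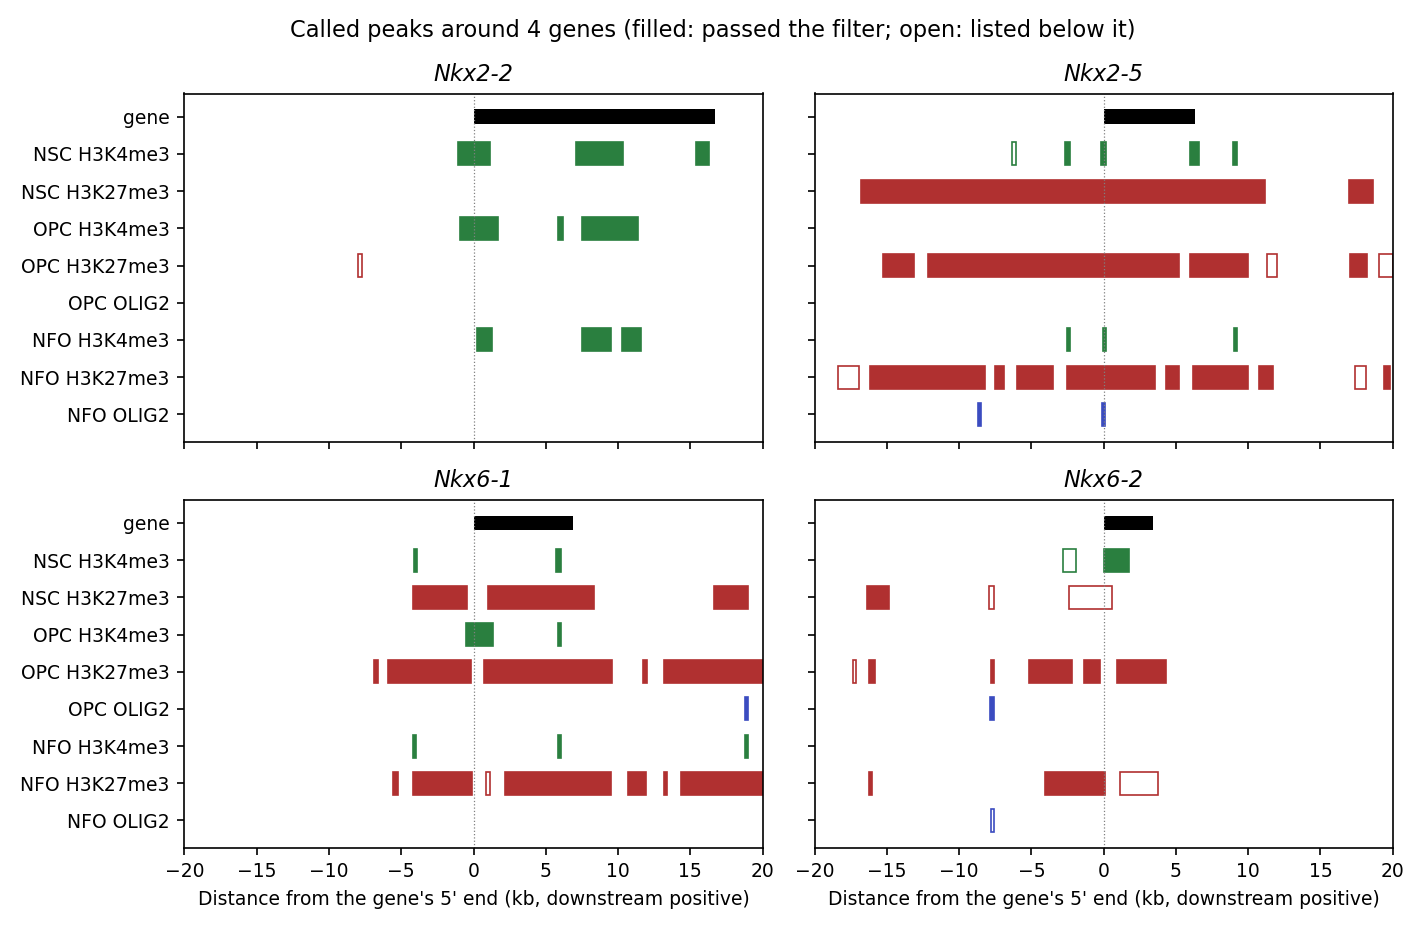
Called peaks (filled) and peaks listed below the filter (open) of each library (rows) around Nkx2-2, Nkx2-5, Nkx6-1 and Nkx6-2, by distance from the gene's 5' end in kb, with the gene as a black bar. Nkx2-2 has K4 blocks at its TSSs at every stage and no called K27, Nkx2-5 lies under K27 across most of the 40 kb shown, Nkx6-1 has K27 on both sides of its TSS, and Nkx6-2 has called K4 in NSCs and called K27 on both sides of its TSS in OPCs and over it in NFOs.

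Nkx2-1 and Nkx2-4, close paralogs used in the ventral forebrain and hypothalamus, were both bivalent in NSCs. In NSCs a single K27 domain of 24859 bp with a fold enrichment of 5.41 covered Nkx2-1 (chr12:56531958-56536908, minus strand), and it was the 28th widest of 22502. In OPCs K27 fell into called peaks of 6112, 502 and 2965 bp, the last over the TSS with 8.24, and in NFOs into 4 peaks of 623 to 6066 bp with fold enrichments of 4.21 to 5.72. The K4 peak of NSCs measured 866 bp with 8.87 and lay 2786 bp from the nearest TSS, near the 3' end. OPCs and NFOs had K4 at the TSS itself, in short peaks of 288 bp with 9.36 and 235 bp with 8.99 that overlapped each other, and OPCs had a further peak of 1327 bp with 4.25. The pattern, K27 throughout and K4 at the TSS in OPCs and NFOs, was that of 12 genes (0.0547%), with Msx2 the listed one.

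Nkx2-4 (chr2:147083316-147085445, minus strand) had K27 at every stage and K4 in NSCs. K27 measured 14775 bp with 5.95 in NSCs, the 88th widest, then 4016 and 2018 bp with 4.38 and 6.64 in OPCs and 3402 and 6493 bp with 5.14 and 5.31 in NFOs. The K4 peak of NSCs had 268 bp and a fold enrichment of 5.53 and lay 406 bp upstream of the TSS, and OPCs and NFOs had no listed K4 peak there. The pattern of Nkx2-4 held 88 genes, 9 of them listed homeobox or patterning genes (Barhl1, Barx1, Bsx, Lbx1, Lbx2, Sim1, Tlx1, Tlx3 and Vax2).

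The members form 2 neighbouring pairs with unlike marks in one case and like marks in the other. Nkx2-4 and Nkx2-2 lie 92.1 kb apart on chromosome 2, and K27 peaks covered 23.6%, 6.69% and 7.05% of the stretch between them in NSCs, OPCs and NFOs without reaching Nkx2-2. Nkx2-1 and Nkx2-9 lie 74.5 kb apart on chromosome 12, both under K27, and K27 covered 12%, 10.3% and 8.18% of the stretch between them.

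Nkx2-5 and Nkx2-3 held the widest K27 peaks of all members in NSCs and in OPCs. Nkx2-5, a cardiac factor (chr17:26838664-26845009, minus strand), lay in NSCs under a domain of 27929 bp, enriched 5.03-fold, the 17th widest of 22502. In OPCs it lay under 17404 and 4035 bp with 5.50 and 5.45, the first the 37th widest of 19265, and in NFOs under 6093, 3796 and 886 bp with 5.32, 4.73 and 4.90. Short K4 peaks at the upstream TSS measured 332 bp with 8.94 in NSCs and 200 bp with 4.10 in NFOs and overlapped each other, NSCs had a K4 peak of 617 bp with 4.20 in the gene, and OPCs had no K4 peak at the gene. Nkx2-3, a factor of gut and spleen (chr19:43612325-43615892, plus strand), lay under 27199 bp with 4.15 in NSCs, the 19th widest. In OPCs K27 covered 14194 and 3107 bp with 5.42 and 5.18, and in NFOs 2945 and 1182 bp with 4.47 and 4.39. Its K4 values were close to the filter, at 3.68 over 375 bp in NSCs and 3.94 over 988 bp in OPCs, and NFOs had no listed K4 peak. Widths compared between any of the stages carry the limit given above, that libraries are not on one scale.

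Nkx2-6, a pharyngeal and cardiac factor (chr14:69171802-69175518, plus strand), was bivalent at all stages, under a K27 peak of similar width in each. K27 measured 7893 bp with 5.18 in NSCs, 8797 bp with 6.62 in OPCs and 8640 bp with 5.12 in NFOs, and all of these peaks spanned the TSS. K4 measured 267 bp with 6.38 in NSCs, upstream of the TSS. It measured 503 bp with 3.66 in OPCs, inside the gene and 2205 bp from the TSS. In NFOs it measured 174 bp with 4.02 upstream and 1432 bp with 3.76 in the gene. Nkx2-5 and Nkx2-6 had the same pattern of calls, K27 throughout and K4 in NSCs and NFOs, which held 40 genes, none of the others in the lists.

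Nkx2-9, which lies beside the floor plate territory in the early neural tube (chr12:56611389-56613284, minus strand), had both marks at every stage. K27 measured 5565 bp with 5.58 in NSCs, 1057 bp with 14.7 and 6976 bp with 5.60 in OPCs, and 253 bp with 3.66 and 8193 bp with 5.36 in NFOs. The OPC peak over the TSS ranked 101st of 19265 by fold enrichment and was the strongest K27 peak at any member. K4 measured 339 bp with 7.60 in NSCs, 1691 bp with 4.77 in OPCs and 251 bp with 9.10 in NFOs, and the short peaks of NSCs and NFOs overlapped the strong K27 peak of OPCs. The pattern, both marks at all stages, held 323 genes (1.47%), with Barhl2, Dbx1, En1, Gli2, Hhex, Isl1, Msx1, Nkx1-2 and Olig3 from the lists.

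Short K4 peaks that recurred at one place are shown for Nkx2-6 and Nkx2-9, the members where such a peak lay outside annotated exons. Capitals mark the bases called in both NSCs and NFOs, 170 bases at Nkx2-6 (the NSC peak, chr14:69170641-69170907) and 224 bases at Nkx2-9 (the NFO peak, chr12:56613447-56613697), on the plus strand of GRCm38.
Nkx2-6 K4 peak: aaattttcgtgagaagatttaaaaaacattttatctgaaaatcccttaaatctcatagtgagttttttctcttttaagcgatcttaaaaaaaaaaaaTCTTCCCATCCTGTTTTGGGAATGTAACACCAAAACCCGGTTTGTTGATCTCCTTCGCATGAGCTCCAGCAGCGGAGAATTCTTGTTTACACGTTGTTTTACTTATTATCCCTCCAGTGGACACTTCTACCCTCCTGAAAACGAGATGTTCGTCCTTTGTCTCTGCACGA
Nkx2-9 K4 peak: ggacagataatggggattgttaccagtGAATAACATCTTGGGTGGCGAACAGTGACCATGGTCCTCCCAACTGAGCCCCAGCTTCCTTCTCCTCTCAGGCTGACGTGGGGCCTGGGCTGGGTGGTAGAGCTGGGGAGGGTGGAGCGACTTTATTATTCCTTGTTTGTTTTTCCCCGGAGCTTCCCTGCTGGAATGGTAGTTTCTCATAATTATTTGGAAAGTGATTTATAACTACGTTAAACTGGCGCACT
Their GC contents were 37.5% and 49.8%, beside medians of 40.1% over all called K4 peaks below 500 bp in NSCs and 44.7% in NFOs. Soft-masked bases, which the genome sequence flags as repeats or low complexity, made up 27.7% and 15.1%, beside medians of 39.9% and 19.4%. Peaks this short made up 6 of 13, 3 of 11 and 5 of 9 called K4 peaks at the members in NSCs, OPCs and NFOs, beside 40.5%, 24.6% and 66.2% of all called K4 peaks.

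Nkx6-3, a gene of the stomach and hindbrain (chr8:23153269-23158948, plus strand), had no K27 and K4 only away from its TSS. A K4 peak over a coding exon measured 846 bp with a fold enrichment of 4.69 in NSCs and 618 bp with 4.90 in OPCs, 4342 and 4199 bp from the TSS, and none was listed in NFOs. Its pattern of no call at the TSS at any stage was that of 6735 genes (30.7%), with Nanog and Noto of the other NKL genes.

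The 29 other NKL homeobox genes gave counts close to those of the members for K27. K27 lay at 22, 26 and 26 of them in NSCs, OPCs and NFOs, K4 at 23, 17 and 8, and 19, 9 and 9 were bivalent. In NFOs K4 lay at 50% of the members and 27.6% of the other NKL genes, a gap of few genes that was not tested. Of the 7 Shh signal genes, from the ligand Shh to the Gli factors, K4 lay at 7, 7 and 5 and K27 at 1, 4 and 2. Of the 13 ventral and dorsal patterning factors, K4 lay at 9, 9 and 6 and K27 at 9, 10 and 10. Dbx1 and Dbx2 are counted in this list and among the NKL genes. Of the 6 oligodendrocyte factors, K4 lay at 5, 6 and 5 and K27 at 2, 2 and 0.

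**Figure D4:**
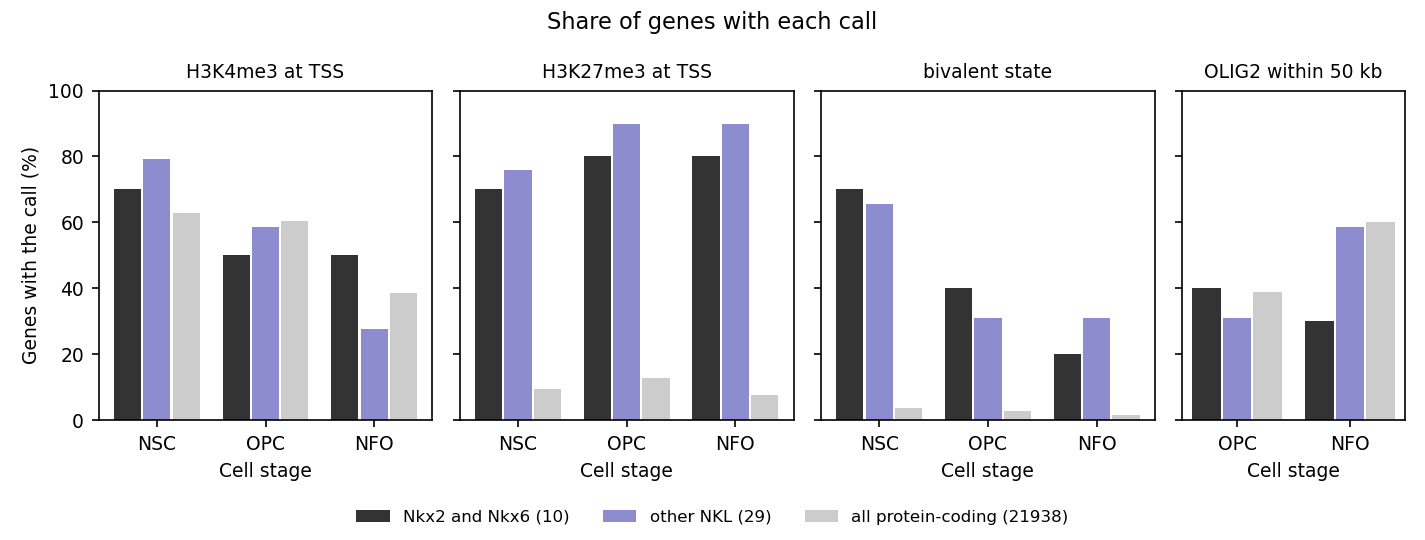
Percent of genes with a called K4 or K27 peak within 2 kb of the TSS, in the bivalent state, or with a called OLIG2 peak in the gene or within 50 kb (4 panels) by cell stage, for the 10 Nkx2 and Nkx6 genes, 29 other NKL genes and 21938 protein-coding genes, as bars from 0. K27 and bivalent bars of both homeobox groups stand well above those of all genes, while K4 and OLIG2 bars do not.

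The share of members with an OLIG2 peak nearby was close to that of all genes in OPCs. In NFOs it was lower, a gap of few genes that was not tested. Called OLIG2 peaks lay in or within 50 kb of 4 of 10 members in OPCs (5 peaks) and of 3 of 10 in NFOs (4 peaks), beside 38.9% and 60% of all protein-coding genes. Inside the gene itself there were 0 members in OPCs and 1 in NFOs (Nkx2-5), beside 12.5% and 21.1%. A longer gene has more room for a peak. Members measured 1896 to 16698 bp, and all genes were not matched to them for length. Among the 29 other NKL genes the numbers were 9 and 17 within 50 kb and 0 in the gene at both stages. Of the Shh signal genes 4 and 7, of the patterning factors 5 and 7 and of the oligodendrocyte factors 4 and 6 had an OLIG2 peak within 50 kb, and Gli3, Ptch1, Sufu, Sox9 and Tcf7l2 had one inside the gene at both stages. A peak within 50 kb may belong to another gene, and the nearest protein-coding TSS was checked for each.

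In OPCs the strongest peak, with a fold enrichment of 15.4, lay 18.9 kb downstream of the TSS of Nkx6-1 and ranked 747th of 6566. Nkx2-3 had a peak 3.77 kb downstream with 8.77 and Nkx2-6 one 11.4 kb upstream with 6.95. Nkx6-2 had peaks 7.74 kb upstream with 7.44 and 34.6 kb upstream with 9.65, and the latter lay 968 bp from the TSS of Cfap46. For the other 4 OPC peaks the nearest TSS was that of the member. In NFOs Nkx2-5 had a peak 8.6 kb upstream with 13.5 and one whose summit lay 25 bp upstream of its TSS with 11.9. Nkx2-4 had a peak 5.58 kb upstream with 8.37 and Nkx2-3 one 21.2 kb downstream with 6.76, and the nearest TSS was that of the member for all 4.

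Nkx2-3 was the only member with called peaks in both stages, at different places. The only place listed in both was 7.7 kb upstream of Nkx6-2, where the NFO value of 2.58 was below the filter. Further listed peaks below the filter lay near Nkx2-1 (3.96, NFOs) and Nkx6-2 (3.62 in NFOs and 3.46 in OPCs). No peak was listed in or near Nkx2-2, Nkx2-9 or Nkx6-3 at either stage.

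**Figure D5:**
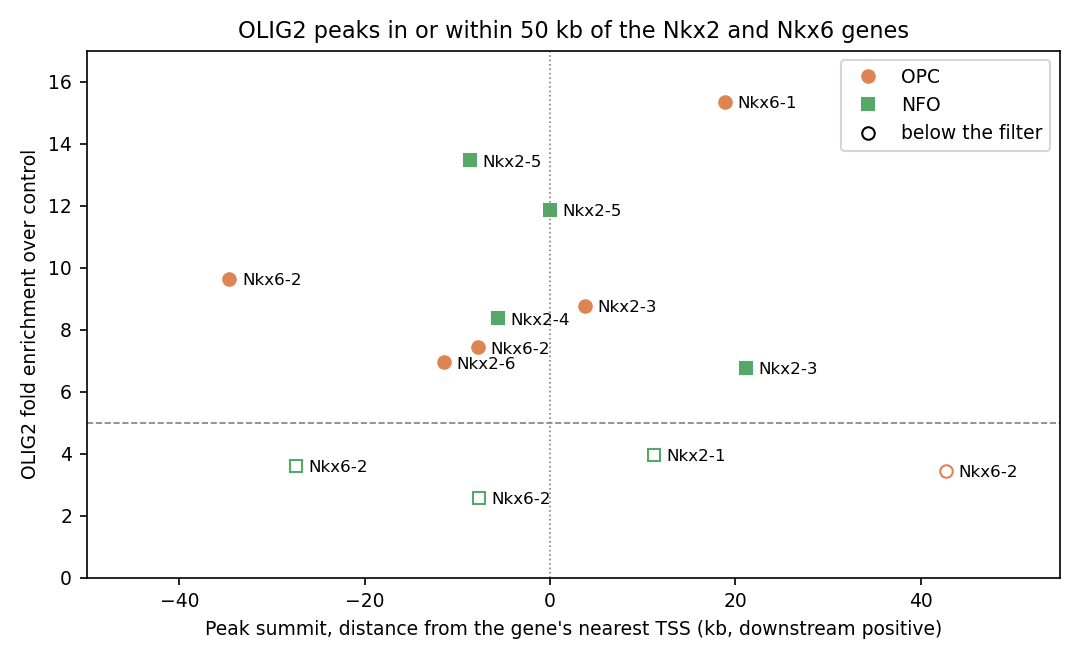
Fold enrichment of each OLIG2 peak (y axis) against the distance of its summit from the nearest TSS of the Nkx gene (x axis, kb) in OPCs (circles) and NFOs (squares), filled above and open below the filter of 5 (dashed line). The strongest peaks are those of Nkx6-1 in OPCs (15.4) and Nkx2-5 in NFOs (13.5 and 11.9), and 1 summit lies within 1 kb of a TSS.

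Most of the called OLIG2 peaks near the members overlapped K27. In OPCs 3 of 5 overlapped a called K27 peak of OPCs, beside 7.72% of all 6566 OLIG2 peaks, and in NFOs 3 of 4 overlapped one of NFOs, beside 1.75% of 14076. The member peaks were taken for their nearness to genes that mostly have long K27 around them, and all OLIG2 peaks were not. Their overlap with K27 is thus not set beside a like group of peaks. The Nkx6-2 peak of OPCs is among these, but the K27 peak there measured 180 bp with a fold enrichment of 3.53 and was shorter than the OLIG2 peak. The peaks of Nkx6-1, of Nkx2-3 in OPCs, of Nkx2-4 and both of Nkx2-5 overlapped K27 at all 3 stages. The Nkx2-3 peak of NFOs, the Nkx2-6 peak and the distal Nkx6-2 peak lay under no K4 or K27 peak.

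The sequences of 5 OLIG2 peaks outside annotated exons are given, chosen after their values were seen: the strongest of each stage and 3 others within 8 kb of a TSS that overlapped K27. They are printed on the plus strand of GRCm38 with E-boxes in capitals. They are the OPC peaks of Nkx6-1 (chr5:101646014-101646243), Nkx6-2 (chr7:139590422-139590651) and Nkx2-3 (chr19:43615983-43616212) and the NFO peaks of Nkx2-4 (chr2:147090909-147091144) and Nkx2-5 at 8.6 kb (chr17:26853489-26853724).
Nkx6-1 OPC: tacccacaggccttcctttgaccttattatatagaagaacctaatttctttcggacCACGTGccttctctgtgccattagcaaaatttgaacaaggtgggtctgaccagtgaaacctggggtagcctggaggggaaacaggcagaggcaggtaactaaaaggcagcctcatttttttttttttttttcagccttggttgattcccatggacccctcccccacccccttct
Nkx6-2 OPC: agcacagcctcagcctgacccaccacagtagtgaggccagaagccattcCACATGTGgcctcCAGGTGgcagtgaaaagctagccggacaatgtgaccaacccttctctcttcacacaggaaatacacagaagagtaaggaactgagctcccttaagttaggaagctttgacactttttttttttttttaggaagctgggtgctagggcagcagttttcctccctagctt
Nkx2-3 OPC: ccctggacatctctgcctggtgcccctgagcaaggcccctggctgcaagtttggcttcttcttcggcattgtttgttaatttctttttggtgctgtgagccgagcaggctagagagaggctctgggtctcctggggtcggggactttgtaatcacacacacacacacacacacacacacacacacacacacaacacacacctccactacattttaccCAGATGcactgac
Nkx2-4 NFO: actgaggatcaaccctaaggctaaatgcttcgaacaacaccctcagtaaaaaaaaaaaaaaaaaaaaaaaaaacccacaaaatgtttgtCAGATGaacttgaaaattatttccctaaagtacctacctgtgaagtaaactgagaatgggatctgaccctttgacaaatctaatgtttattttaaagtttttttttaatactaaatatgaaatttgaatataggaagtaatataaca
Nkx2-5 NFO: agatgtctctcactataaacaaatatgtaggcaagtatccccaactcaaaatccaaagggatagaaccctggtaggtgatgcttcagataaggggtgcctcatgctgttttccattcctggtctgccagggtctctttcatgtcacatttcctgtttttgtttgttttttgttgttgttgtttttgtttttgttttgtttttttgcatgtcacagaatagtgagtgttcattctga
The Nkx6-1 peak holds 1 E-box, the Nkx6-2 peak 3, of which the first and second overlap, and the Nkx2-3 and Nkx2-4 peaks 1 each with the letters CAGATG. The Nkx2-5 peak, the strongest in NFOs at a member, holds none in this window, and neither does the peak at its TSS, which overlaps an exon and is not printed. Long runs of A or T stand in the Nkx6-1, Nkx6-2 and Nkx2-4 peaks. The Nkx2-3 peak holds a CA repeat and the Nkx2-5 peak T-rich sequence. Soft-masked bases made up 13.9% (Nkx6-2) to 36% (Nkx2-4) of the 5 printed peaks. No such share of all OLIG2 peaks is given, and the part of repeats in these calls was not tested. Over the called peaks, 4 of 5 in OPCs and 2 of 4 in NFOs held CANNTG, beside 70.3% and 69.2% of all OLIG2 peaks, and 1 of 5 and 1 of 4 held CAGATG, beside 19% and 17.5%. No called peak held the E-box CAGCTG, the NK2 site core CACTTNA or the GLI site GACCACCCA, searched on both strands and found in 14.1%, 10.2% and 0.198% of OPC and 10.4%, 11.4% and 0.227% of NFO peaks.

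OLIG2 RIP-Seq gave no site in RNA of the members. The deposited lists held 101310 sites for OLIG2 and 83195 for the control, of which 101053 and 82974 matched a gene, and 0 lay in any of the 10 members or in Nkx2-2os in either list. The lists hold called sites alone, so 0 sites does not set an upper limit on bound RNA. The share of all genes with a site is not given here, so 0 of 10 cannot be set beside genes in general. The labels give these libraries as NFOs and the study's methods as NSCs.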

How the data were processed

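ChIP-Seq called peaks of H3K4me3, H3K27me3 and OLIG2 and RIP-Seq sites were analysed. The authors mapped reads to mm10 with Bowtie2, called broad histone peaks with MACS2 and OLIG2 peaks with SPP for each library separately, and deposited for each peak a ratio, its fold enrichment over control DNA, and the −log10 of the FDR. The deposited RIP-Seq lists give tag counts and a p-value per site from the authors' ASPeak run. Tool versions are not given in the sources used here. The filter of the study's methods was applied to the deposited lists. Samples were grouped by title. Peaks were joined to protein-coding genes of GENCODE release M21, and overlaps needed 1 bp. The 10 genes and the gene lists were chosen with earlier results of these data known, and all 10 genes are described. Genes of other lists were named where they shared a member's pattern of 6 calls or had OLIG2 peaks in the gene at both stages, and some of them are not reported here. State assignment was tested on simulated data and recovered 2000 of 2000 genes. Sequences came from RefSeq (GRCm38.p6). With 1 library per condition no test was made. Alternatives were other thresholds, windows, overlaps and peak widths, and lncRNAs added to the background. The 3 input libraries, the OLIG2 peaks of NSCs and columns of scores, signal, RPKM and FDR bounds of the RIP-Seq lists were not used here. Tools were Python 3.11.15, SciPy 1.17.1, NumPy 2.4.6, pysam 0.24.0 and Matplotlib 3.10.9.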

Additional observations from a re-analysis of the deposited data

How the results depend on the processing

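Of 82 values over 15 counts under alternative settings, 60 were within 1.5 times the reported count. K27 counts at the TSS stayed within that range under every setting tried. The bivalent count in NFOs (2) was the least stable, at 1 with every listed peak, 0 with an overlap of at least 200 bp, 5 with any gene that has a bivalent domain, 1 with K4 peaks of at least 500 bp and 4 with K27 peaks of at least 1000 bp. Both width limits were chosen after seeing the data. With K4 peaks of at least 500 bp, the K4 count was 2 in NSCs and 2 in NFOs and the bivalent count in NSCs 4. With a histone fold enrichment above 5, the K4 count was 2 in OPCs and 3 in NFOs and the bivalent count in OPCs 1. Apart from K4 counts with peaks of at least 500 bp, shares of all genes are not given under these settings or the OLIG2 settings below. Whether genes in general moved alike is therefore not shown.

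With every listed OLIG2 peak, 5 members had 7 peaks in NFOs. With a fold enrichment above 10, 1 member had 1 peak in OPCs and 1 member had 2 in NFOs. Within 100 kb, 5 members had a peak in NFOs, and with 5 kb upstream or in the gene, 0 members had 0 peaks in OPCs and 1 member had 1 in NFOs. The cause of these shifts lies in the settings, which keep or drop peaks. With lncRNAs added, 35312 genes in all, the background share of K4 fell to 47.3%, 45% and 28.9% and that of K27 to 8.15%, 10.8% and 6.42%. No paired analysis was possible because each condition has 1 library and no result comes from a test. The number of reads per library is unknown, so the absence of a peak says only that none was called at these depths.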

Other observations

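Several OLIG2 peaks near the members coincided with short histone peaks of other libraries. The OPC peak downstream of Nkx6-1 (fold enrichment 15.4) lay over a K4 peak of 177 bp in NFOs with 4.35, and the OPC peak upstream of Nkx6-2 (7.44) over a K27 peak of 180 bp in OPCs with 3.53. The NFO peak at the TSS of Nkx2-5 (11.9) lay over the K4 peaks of 332 bp in NSCs and 200 bp in NFOs, and the NFO peak of Nkx2-4 (8.37) over a K4 peak of 276 bp in NSCs with 5.36. A called histone peak below 500 bp of any of the 6 libraries lay under 2 of the 5 OPC peaks and 2 of the 4 in NFOs, beside 18.1% of all OLIG2 peaks in OPCs and 15.3% in NFOs. These overlaps were not tested.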
